A study of Drosophila melanogaster with 12 samples.

Results

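The small heat-shock genes of band 67B form a compact cluster on the left arm of chromosome 3 of Drosophila melanogaster. The 6 genes described here are Hsp67Bc, Hsp22, Hsp26, Hsp67Ba, Hsp23 and Hsp27, in their order along 3L. They were chosen by symbol and by their place in the cluster, with RNA levels and peaks of these data already known, so their levels and peaks are given as descriptions and without tests. All 6 matched a FlyBase gene identifier and a position, out of 13922 protein-coding genes on the main chromosome arms and 5135 genes listed in the RNA table. The cluster spans 14184 bp of dm6 (3L, 9371511 to 9385694).

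The products are small heat-shock proteins, chaperones that share an alpha-crystallin domain, assemble into oligomers and hold unfolding proteins without using ATP. Heat and other protein-damaging stress switch the genes on through heat shock factor, the same factor that drives Hsp70 and Hsp68. In Drosophila several of them are also expressed without stress during development, including at the end of larval life under the steroid hormone ecdysone. The proteins differ in where they act: Hsp23 and Hsp26 are mainly cytosolic, Hsp27 is mainly nuclear, Hsp22 is mitochondrial, and Hsp67Bc is regarded as a counterpart of human HSPB8, a chaperone linked to autophagy.

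All samples came from the central nervous system of wandering larvae of the third instar. The Dam-Sd group (2 samples) and the Dam-Nerfin-1 group (2 samples) carried a Dam fusion to the TEAD-family factor Scalloped (Sd) or to the zinc-finger factor Nerfin-1, inserted at attP2 from a pUAST-LT3 plasmid. The Dam-only group (2 samples) carried the unfused methylase. Dam marks GATC sites, and in a fusion those that the tethered protein comes near. All 3 DamID groups shared a w background, the GMR31H08-Gal4 driver, UAS-GFP and 1 copy of tubGal80TS, so the transgenes were active only in cells of that driver. Their eggs were laid at 25°C, the animals spent 4 days at 18°C, and expression was allowed at 29°C for the last 24 hours. Open chromatin (ATAC-seq, 3 samples) and RNA (RNA-seq, 3 samples) came from cells sorted for GFP from larvae with the reporter P[nerfin-1.GFP-NLS.SV-40], labelled iA and reared at 25°C. Binding and RNA were thus measured at different temperatures and in cells marked in different ways, and for heat-responsive genes these conditions cannot be told apart.

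RNA was available as read counts in libraries S1, S2 and S3, which held 43555895, 44657928 and 57468071 counts over the listed genes. Each of these libraries pools RNA from several sorts, so its spread is that between pools, and p-values were not computed for this single group. Of the neuronal markers elav, nSyb, brp, Syt1, fne, Snap25 and para, 6 of 7 were listed, summing to 6613, 6691 and 6365 counts per 1000000 listed counts (CPM) in S1, S2 and S3. The log2 of CPM in S1 over S3 was 0.05 for elav, 0.12 for nSyb, 0.44 for brp and 0.07 for Syt1. It was -0.17 for fne and -0.02 for Snap25, so the sum hides differences in both directions. Glial markers were listed for 2 of 8 genes (gcm and nrv2, with repo not listed), neuroblast markers for 1 of 6 (ase), and hemocyte and muscle markers for 0 of 4 each. The glial markers summed to 144, 173 and 176 CPM in S1, S2 and S3, most of it from nrv2 (122, 131 and 135 CPM), and ase stood at 31.6, 58.2 and 52.6 CPM. A gene whose identifier is newer than the table's annotation also counts as not listed. In such bulk samples fewer cells of a type and less RNA per cell cannot be told apart.

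Of the 6 genes, 5 were listed as expressed, and 35.5% of all protein-coding genes were. Hsp23, a cytosolic chaperone, had the highest count of the cluster, with 192240, 161713 and 190002 reads in S1, S2 and S3. This was 4414, 3621 and 3306 CPM, a mean of 3780 ± 571 CPM (SD, n = 3) and rank 10 among the 5135 listed genes. S1 lay above the other 2 libraries, which were close to each other.

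Hsp27, the nuclear member, stood at 3044 CPM in S1, 2591 CPM in S2 and 2537 CPM in S3, a mean of 2724 ± 279 CPM (SD, n = 3) and rank 25. S2 and S3 differed by 0.03 on the log2 scale. Hsp26, the other cytosolic member, stood at 2910 CPM in S1, 1948 CPM in S2 and 1217 CPM in S3, a mean of 2025 ± 849 CPM (SD, n = 3) and rank 42. Its 3 libraries were well apart, with S1 highest and S3 lowest.

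Hsp67Bc stood at 699 CPM in S1, 430 CPM in S2 and 329 CPM in S3, a mean of 486 ± 191 CPM (SD, n = 3) and rank 464. Like Hsp26 it was highest in S1 and lowest in S3. Hsp67Ba was the least abundant listed member, at 93.3 CPM in S1, 99.3 CPM in S2 and 108 CPM in S3, a mean of 100 ± 7.51 CPM (SD, n = 3) and rank 2231. It had the opposite order, with S3 highest. An antisense RNA gene, asRNA:CR43481, overlaps 1375 bp (79.3%) of Hsp67Ba, and the sources used here do not state whether counting used strand, so reads of the pair cannot be separated.

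Hsp22, the mitochondrial member, was not listed. It lies wholly inside the annotated span of CG4456, earlier called Hsp67Bb, which was not listed either. Reads that fall in both genes can be dropped by a counter as ambiguous, and whether that happened here was not tested. Of the other genes in the cluster, CG4461, another small heat-shock protein gene, and asRNA:CR43481 were also not listed. Outside the cluster, the nearest gene on the Hsp67Bc side, Fdx1, was not listed. On the Hsp27 side the pseudogene CR43483 overlaps the end of Hsp27 and was not listed, and the next, CR43482, had 439, 418 and 388 CPM in S1, S2 and S3.

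**Figure D1:**
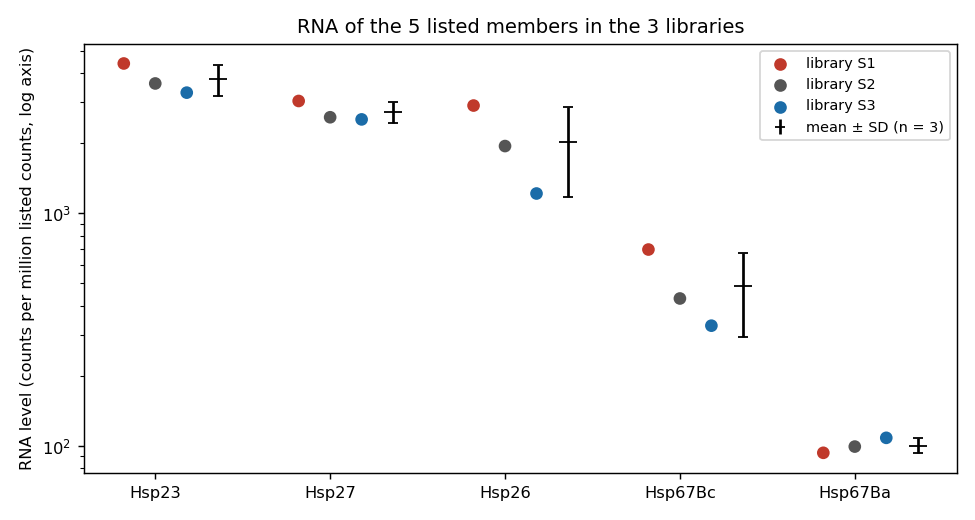
RNA level of each listed member in counts per 1000000 listed counts (log axis), with 1 point per library (S1, S2, S3) and the mean ± SD over the 3 libraries beside them. Hsp23 leads in every library, the 3 points of Hsp26 and of Hsp67Bc are spread widest, and Hsp67Ba lies near 100 CPM in all 3.

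Levels of different genes were compared per kb of annotated gene span. The span includes any introns, so genes with long introns rank too low on this scale. Hsp23 had 4276 ± 645 CPM per kb, Hsp26 2005 ± 840 CPM per kb and Hsp27 1669 ± 171 CPM per kb (SD, n = 3 for each). Among 5009 listed genes with a position these were ranks 1, 3 and 6. Hsp67Bc had 492 ± 194 CPM per kb (rank 89) and Hsp67Ba 57.9 ± 4.34 CPM per kb (rank 768; SD, n = 3 for each).

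The order of these levels was the same in all libraries except for Hsp26 and Hsp27. Per kb of span Hsp26 was 1.54 times Hsp27 in S1, 1.21 times in S2 and 0.776 times in S3, so these 2 members do not differ in level beyond their spread. Hsp23 was above Hsp26 per kb in each library, by 1.73, 2.12 and 3.10 times in S1, S2 and S3. The 5 listed members together held 1.12% of the listed counts in S1, 0.869% in S2 and 0.750% in S3. Within that sum, Hsp26 made up 26.1% in S1, 22.4% in S2 and 16.2% in S3, while Hsp27 made up 27.3%, 29.8% and 33.8%.

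The spread between libraries set the members apart from each other. The log2 difference of S1 over S3 was 1.26 for Hsp26 and 1.09 for Hsp67Bc (2.39-fold and 2.13-fold higher in S1), but 0.42 for Hsp23, 0.26 for Hsp27 and -0.21 for Hsp67Ba. Over all listed genes the median of this difference was -0.12, with the middle 50% between -0.22 and -0.02. Relative to that median, Hsp67Ba lay inside the range of most genes and the other 4 members lay above it. With library scaling by TMM the median moved to -0.01 and the members' differences to 1.37, 1.20, 0.53, 0.38 and -0.10 in the same order. Over the 136 genes of at least 1000 CPM, which include Hsp23, Hsp26 and Hsp27, the median in CPM was -0.01, with the middle 50% between -0.15 and 0.16. The median of abundant genes thus also lay above the -0.12 of all listed genes. Hsp23, Hsp26 and Hsp27 lay above the middle 50% of the abundant genes.

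Hsp26 and Hsp67Bc were the 2 members at least 2-fold higher in S1 than in S3, a size that 17 of 5135 listed genes reached in CPM (0.331%) and 20 under TMM. Of the 17, 8 were other heat-shock genes, namely all 6 Hsp70 genes, Hsp68 and DnaJ-1, a co-chaperone of Hsp70. The 17 were named after their values were seen. The remaining 7 were 4 ribosomal RNA genes or pseudogenes, lncRNA:CR46006, Sirup, and lncRNA:alphagamma-element:CR32865, which is transcribed at an Hsp70 locus. Over the 3 libraries the coefficient of variation was 41.9% for Hsp26, 39.4% for Hsp67Bc, 15.1% for Hsp23, 10.2% for Hsp27 and 7.49% for Hsp67Ba.

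The difference was graded over the libraries. Without S1, S2 over S3 was 0.68 for Hsp26 and 0.39 for Hsp67Bc on the log2 scale, and without S3, S1 over S2 was 0.58 and 0.70. In either pair 0 members reached a 2-fold difference, and 5 and 9 listed genes did. In the pair without S1, 4 of the 5 genes were Hsp70Aa, Hsp70Ab, Hsp68 and DnaJ-1. In the pair without S3, 8 of the 9 were ribosomal RNA genes or pseudogenes and 0 were heat-shock genes. The 4 ribosomal RNA genes or pseudogenes among the 17, whose reads can reflect RNA preparation, were thus higher in S1 than in both other libraries, and their part in the values of Hsp26 and Hsp67Bc was not tested. Of the listed markers of other cell types, gcm and ase were lower in S1 than in S3 by more than most listed genes. The log2 difference of S1 over S3 was -0.90 for gcm of the glial list (22.1, 41.9 and 41.2 CPM in S1, S2 and S3). Whether gcm marks glia in these sorted cells was not tested, and repo of the same list was not listed. For the neuroblast marker ase it was -0.73. The glial marker nrv2 (-0.15) and Hsp67Ba (-0.21) lay between the quartiles of all listed genes (-0.22 and -0.02), so neither was unusually low in S1. The other listed members were higher in S1 than in S3. The part of cell composition in the members' differences was not tested.

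**Figure D2:**
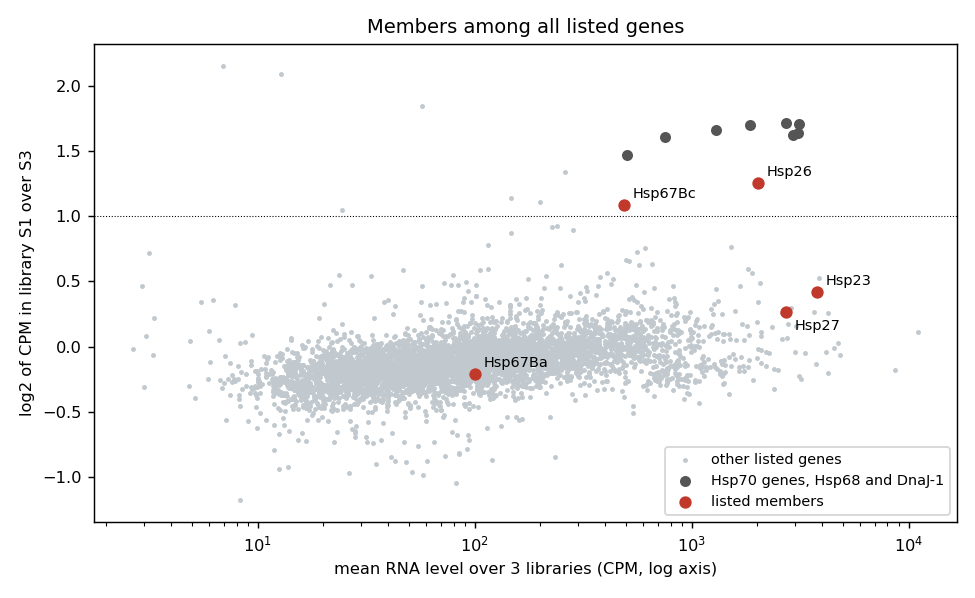
Each point is 1 of the 5135 listed genes, placed by its mean RNA level (CPM, log axis) and the log2 of its CPM in library S1 over S3; the dotted line marks a 2-fold difference. Hsp26 and Hsp67Bc lie above the line near the Hsp70 genes, Hsp68 and DnaJ-1, while Hsp23, Hsp27 and Hsp67Ba lie below it.

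The other heat-shock and chaperone genes give a scale for these values. Summed over the 6 Hsp70 genes, whose near-identical copies can share reads, RNA stood at 21928 CPM in S1, 12973 CPM in S2 and 6904 CPM in S3, 3.18-fold higher in S1 than in S3. Hsp68 stood at 2815, 1882 and 866 CPM in S1, S2 and S3, and DnaJ-1 at 701, 551 and 254 CPM. Hsp83, the Hsp90 of flies, stood at 4469, 4070 and 3099 CPM, a log2 difference of 0.53. By the log2 difference of S1 over S3, not by level, Hsp26 and Hsp67Bc therefore lay below the Hsp70 genes and above Hsp83. Hsp23 and Hsp27 lay below Hsp83 by the same measure.

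Of 24 such genes 23 matched the annotation and 21 were listed, with a median log2 difference of S1 over S3 of 0.04. The constitutive chaperones Hsc70-4 (2913, 3093 and 3005 CPM) and Hsc70-3 (1050, 1028 and 1044 CPM) differed between libraries by at most 0.03 (Hsc70-3) and 0.09 (Hsc70-4) on the log2 scale and were named after their values were seen. The gene of heat shock factor itself, Hsf, stood at 155, 157 and 155 CPM. Other genes of the list did not fall in the order S1, S2, S3 either. In these libraries lncRNA:Hsromega stood at 332, 241 and 254 CPM, lowest in S2. The co-chaperone gene p23 was highest in S3, at 318, 376 and 401 CPM. Both were named after their values were seen. Of 5 other small heat-shock genes 1 was listed, CG14207, at 128, 133 and 144 CPM, an order like that of Hsp67Ba. The log2 differences of S1 over S3 of CG14207 (-0.18) and Hsp67Ba (-0.21) both lay between the quartiles of all listed genes (-0.22 and -0.02). Their shared order thus does not set them apart from most genes. For the 5 listed members the median difference was 0.42, beside -0.12 over all listed genes.

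**Figure D3:**
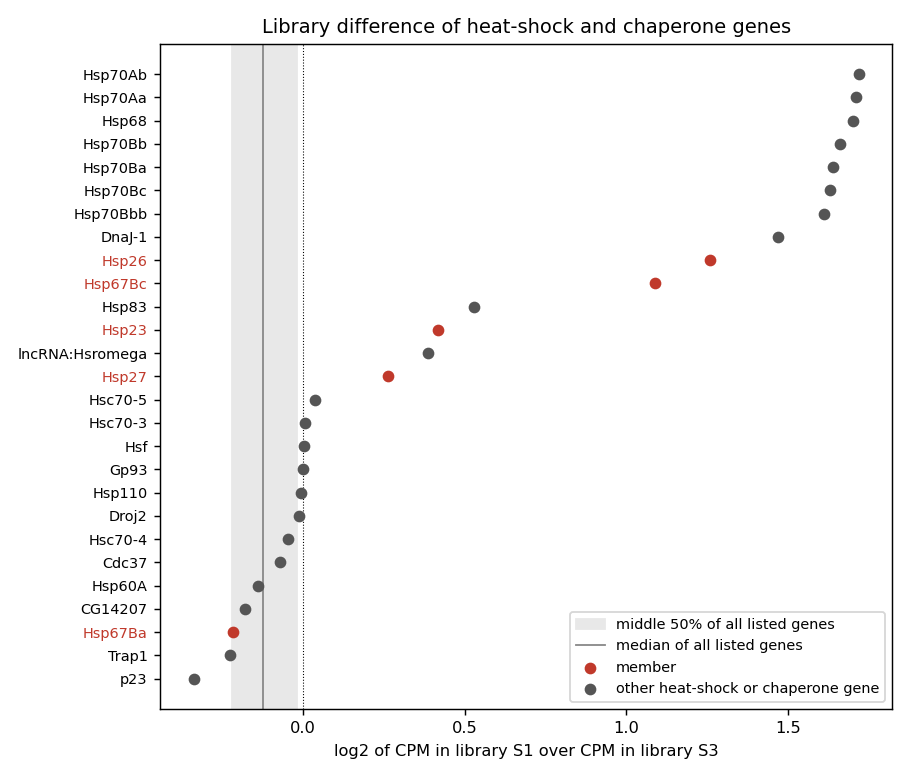
Log2 of CPM in library S1 over library S3 for the listed members (red) and the other listed heat-shock and chaperone genes (grey), sorted by value; the band and line mark the middle 50% and the median of all listed genes. The members run from 1.26 for Hsp26, below the Hsp70 genes, Hsp68 and DnaJ-1, to -0.21 for Hsp67Ba, within the band.

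Of the 5 listed members, 4 were highest in S1 and lowest in S3 in CPM, an order that 8.26% of listed genes had. In CPM the median listed gene was lower in S1 than in S3 (log2 difference -0.12), which makes this order rarer. The share under TMM, where that median was -0.01, was not computed. The listed genes nearest to the members' mean profile, by the root mean square difference of log2 deviations over the 3 libraries, were FBgn0000210 (no symbol matched), ed, Rbp6, cpo and nerfin-1, at 0.002 to 0.037. With only 3 libraries this is a weak measure of likeness, and the nerfin-1 reporter was used to sort the cells. Taken 1 by 1 after the values were seen, Hsp26 had Sirup and 4 Hsp70 genes as its nearest 5, at 0.085 to 0.165. Hsp67Bc had Sirup, GEFmeso, Dscam2, ct and Dscam3, at 0.101 to 0.159. The measure depends on the size of the library differences, which were much smaller for the other members than for the Hsp70 genes. Hsp70 genes could thus not lie near those members, whatever the order of the libraries, and nothing is concluded from their absence. The nearest 5 of the other members held 0 genes of the heat-shock lists and lay closer. They were unc-5, RhoGAP19D, sns, E(spl)m6-BFM and Snoo for Hsp23, at 0.0089 to 0.0236. For Hsp27 they were CG42404, Flo2, mub, kek2 and sdk, at 0.0056 to 0.0111, and for Hsp67Ba beat-Va, PGAP3, CG14805, wun and CG15097, at 0.00067 to 0.00115.

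All 6 genes had a Sd peak, a Nerfin-1 peak and an ATAC peak in the gene or within 1 kb. Over all protein-coding genes 35.6% had a Sd peak, 32.9% a Nerfin-1 peak, 27.7% both and 83.2% an ATAC peak. Among the 4450 genes of a span like the members' (884 to 2034 bp), 20.1% had both DamID peaks. The 6 genes are not independent here, since the Sd calls rest on 4 peaks and the Nerfin-1 calls on 3, and neighbours share them. Peaks covered 47.5% of the cluster in the Sd list and 50.2% in the Nerfin-1 list, against 4.94% and 4.10% of all chromosome arms. ATAC peaks covered 39.7% of the cluster, against 14.5% of all arms.

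**Figure D4:**
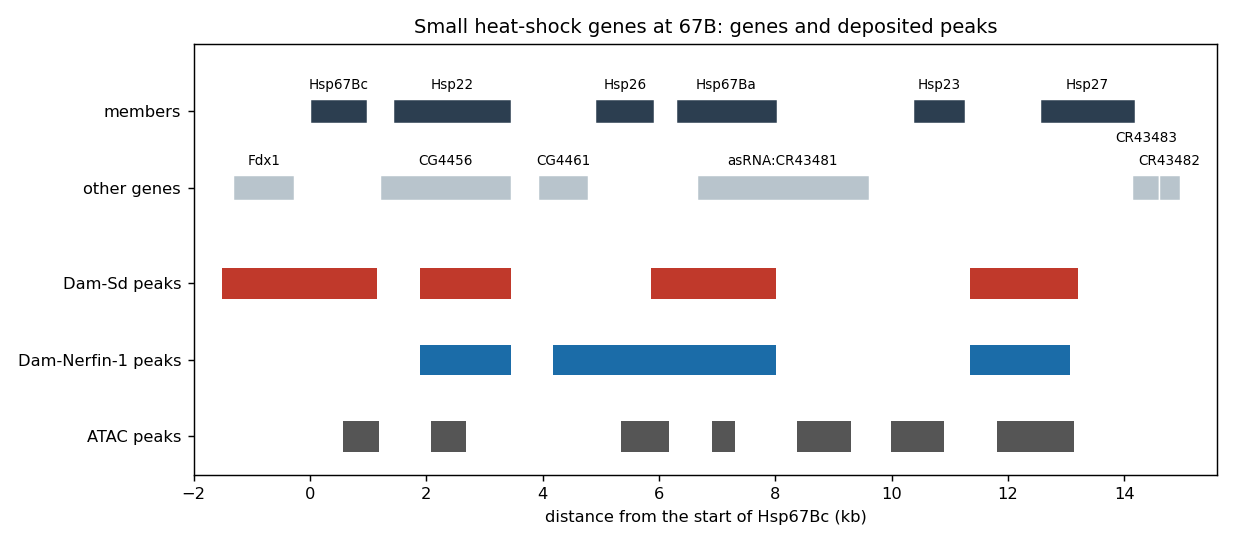
Map of the cluster, with distance in kb from the lower-coordinate end of Hsp67Bc; rows show the members, other annotated genes, and the peaks of the Dam-Sd, Dam-Nerfin-1 and ATAC lists as bars to scale. The Sd peak at Hsp67Bc has no Nerfin-1 partner, the Nerfin-1 peak at Hsp26 extends beyond the Sd peak there, and the ATAC peak at Hsp23 has no DamID peak over it.

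At Hsp67Bc the Sd list held a peak of 2670 bp (3L, 9369990 to 9372659) that covered the whole gene and reached over Fdx1. No Nerfin-1 peak overlapped it. The only Nerfin-1 peak counted for Hsp67Bc lay 900 bp from the gene, over Hsp22. An ATAC peak of 622 bp (3L, 9372075 to 9372696) covered 423 bp of Hsp67Bc, and 585 bp of it lay in the Sd peak.

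At Hsp22 both lists held the same interval of 1568 bp (3L, 9373397 to 9374964), with identical boundaries, over 77.1% of the gene. Its end is also the annotated end of Hsp22 and of CG4456. An ATAC peak of 601 bp (3L, 9373588 to 9374188) lay wholly inside it. Hsp22 was thus covered by both DamID lists and by open chromatin while not listed in the RNA table.

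At Hsp26 and Hsp67Ba the lists shared a right boundary and differed on the left. The Sd peak was 2160 bp long (3L, 9377367 to 9379526), covered 99.5% of Hsp67Ba and only 61 bp (6.04%) of Hsp26. The Nerfin-1 peak was 3839 bp long (3L, 9375688 to 9379526) and covered all of Hsp26 as well as 99.5% of Hsp67Ba; 95.6% of Nerfin-1 peaks were shorter. In the authors' deposited lists both peaks carry the identifiers of Hsp26 and asRNA:CR43481 and not that of Hsp67Ba. Open chromatin there comprised an ATAC peak of 825 bp (3L, 9376864 to 9377688) over the right part of Hsp26 and one of 409 bp (3L, 9378416 to 9378824) inside Hsp67Ba. The one at Hsp26 lay wholly in the Nerfin-1 peak, with 322 bp of it in the Sd peak.

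Between Hsp23 and Hsp27 the Sd list held a peak of 1866 bp (3L, 9382857 to 9384722) and the Nerfin-1 list one of 1716 bp (3L, 9382857 to 9384572). They began at the same base, 92 bp from Hsp23, and covered 40.4% and 31.2% of Hsp27. An ATAC peak of 1325 bp (3L, 9383326 to 9384650), longer than 96.1% of that list, lay wholly in the Sd peak and covered 588 bp of Hsp27. Over Hsp23 itself, the member with most RNA, there was an ATAC peak of 916 bp (3L, 9381502 to 9382417) that no DamID peak overlapped. A further ATAC peak of 927 bp (3L, 9379881 to 9380807), within asRNA:CR43481 and 347 bp from Hsp67Ba, also had none.

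The calls within 1 kb thus hide differences between the members. With no flank, 5 members had a Sd peak (all but Hsp23), 4 had a Nerfin-1 peak (all but Hsp23 and Hsp67Bc) and all 6 had an ATAC peak. Over all protein-coding genes these shares with no flank were 27.5%, 25.5% and 65.8%. By the authors' identifiers, Sd was assigned to Hsp67Bc, Hsp22, Hsp26 and Hsp27, and Nerfin-1 to Hsp22, Hsp26 and Hsp27, beside 28% and 25.3% of all protein-coding genes. By these identifiers 3 members and 20.9% of all protein-coding genes had both. With at least 50% of the peak required within 1 kb of the gene, 3 members and 22.7% of all protein-coding genes had both. The lists carry no height or score and no value per replicate, so how strongly each gene was bound was not measured here.

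Set beside the RNA level, the share of each listed gene covered by DamID peaks differed between the lists. From the highest level per kb to the lowest (Hsp23, Hsp26, Hsp27, Hsp67Bc, Hsp67Ba), Sd peaks covered 0%, 6.04%, 40.4%, 100% and 99.5% of the gene. Nerfin-1 peaks covered 0%, 100%, 31.2%, 0% and 99.5% in the same order. Neighbours share peaks, and the Sd values of 6.04% and 99.5% come from the same peak. This ordering was not planned, and binding and RNA were measured in differently marked cells and at different temperatures. A relation between coverage and RNA level was not tested. Among the other heat-shock and chaperone genes, 14 of the 23 matched had both DamID peaks within 1 kb, 16 had a Sd peak, 15 a Nerfin-1 peak and 23 an ATAC peak. Over all protein-coding genes the shares were 27.7%, 35.6%, 32.9% and 83.2% in that order. Some genes of this list, such as Hsp70Bb and Hsp70Bc, are neighbours and are not independent. Of the 5 other small heat-shock genes 2 had both, CG14207 and CG4461, of which CG4461 lies inside the cluster. Hsp68 had a Nerfin-1 peak only, and Hsp70Aa had neither.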

How the data were processed

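The submitters' processing notes name dm6 and, with no role or version, Bowtie2, MACS2, bedtools, Subread, featureCounts and edgeR; the role of each was not given in the sources used here. Deposited by the authors were raw counts per gene for 5135 genes kept as expressed by a rule not stated (lowest count 99; 0 value columns left unmapped), and 1 interval list each for ATAC (35494), Sd (4064) and Nerfin-1 (3649), without scores. The count columns could not be tied to replicate numbers. Totals over listed genes are not the full depth; the depth of DamID and ATAC is unknown.

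Gene positions came from the RefSeq table of assembly Release 6, without strand, exons or sequence, so coding length, promoters, motifs and protein sequences were not analysed here. Intervals were read as BED and printed from base 1. A gene had a peak when 1 bp or more lay in the gene or 1 kb either side. Counts were scaled to 1000000 listed counts (CPM). Of 8166 identifiers in the RNA and DamID files 168 matched no symbol. Python 3.11.15 and pandas 2.3.3 were used; edgeR 4.0.16 (TMM) and DESeq2 1.42.0 gave alternative scalings. The code was checked on data with known answers. The members and gene lists were chosen with earlier results of these data known. Named are the members, the genes in and next to the cluster, list members and the 5 genes of nearest profile. The genes at least 2-fold higher in S1 than in S3 and those nearest to each single member were named after their values were seen. So were 2 constitutive chaperones, lncRNA:Hsromega and p23. No test was run, as there is a single RNA group.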

Additional observations from a re-analysis of the deposited data

How the results depend on the processing

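No paired analysis was possible because each peak list pools its group and the RNA table has 1 group. The mean level of each listed member moved by less than its SD under TMM, DESeq2 size factors, totals without the 10 genes of highest count and each library left out. Under TMM and DESeq2 the highest-over-lowest log2 difference of Hsp67Ba was 0.0985 and 0.0918, beside 0.214 in CPM. For the other 4 it was higher than in CPM under both. It was 0.53 and 0.54 for Hsp23 (0.42 in CPM) and 1.37 and 1.38 for Hsp26 (1.26). For Hsp27 it was 0.38 and 0.39 (0.26), and for Hsp67Bc 1.20 and 1.21 (1.09). With each library left out it ranged, over the pairs, from 0.13 to 0.42 for Hsp23, 0.58 to 1.26 for Hsp26, 0.0306 to 0.263 for Hsp27, 0.0890 to 0.214 for Hsp67Ba and 0.39 to 1.09 for Hsp67Bc. The number of listed genes at least 2-fold higher ranged over these pairs from 5 to 17 in CPM, and that of members from 0 to 2. Under TMM and under DESeq2, 20 listed genes and 2 members were at least 2-fold higher in S1 than in S3. Among genes with a mean count of at least 1000 there were 15 in CPM. Members with both DamID peaks were 3 when at least 50% of the peak had to lie in the window, and 3 by the authors' identifiers, which also gave 3 with a Nerfin-1 peak. Flanks of 2 kb and 5 kb, and peaks longer than the median of their list, kept all counts within 1.5 times. By CPM without length, the percentile was 56.7 in place of 84.7 for Hsp67Ba and 91.2 in place of 98.2 for Hsp67Bc. The alternatives on library pairs, on CPM without length and on the count of genes were chosen after seeing the data. The planned division by coding length was not run.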

Other observations

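Genes of the ecdysone response were listed for 7 of 12. Eip75B, a nuclear receptor, stood at 1420, 1274 and 1130 CPM in S1, S2 and S3, and Eip93F at 633, 504 and 402 CPM. EcR, the ecdysone receptor, stood at 165, 161 and 141 CPM. These 3 genes were highest in S1, as was Hr39 at 164, 160 and 157 CPM. Hr4 was highest in S2, at 175, 180 and 162 CPM. The receptor partner usp (98.2, 97.8 and 102 CPM) and Eip71CD (31.3, 31.8 and 33.2 CPM) were highest in S3. The median log2 difference of S1 over S3 was 0.12 for the list, beside -0.12 over all listed genes, and 0 of the 7 reached a 2-fold difference. Whether ecdysone bears on the levels of the cluster was not tested.

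Of 10 genes of the response to dissociation and stress, 3 were listed. Jra, a subunit of the AP-1 factor, stood at 44.7, 40.5 and 42.4 CPM in S1, S2 and S3. The phosphatase gene puc, a target of JNK signalling, stood at 124, 92.0 and 88.9 CPM, and Irbp18 at 7.28, 7.12 and 7.95 CPM.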
